A study of Mus musculus with 24 samples.

Results

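The retina of mice without Nrl was followed here from postnatal day 2 (P2), when photoreceptors are still being born, to 2 months, when the tissue is adult. The comparison set the 4 arrays of Nrl-/- whole retina at 2 months against the 4 at P2, which are 8 of the 24 arrays of the series, over all 12422 probe sets other than the array's controls. The 4 Nrl-/- arrays at P10 served only to find genes whose P10 mean lay outside the range between P2 and 2 months, called peaks when above it and dips when below it. Wild-type retinas, 4 arrays at P2 and 4 at 2 months, showed where the knockout's net change differed from the wild type's. Both genotypes shared a mixed background of the R1 and C57BL/6 strains, and the controls carried no engineered allele that the labels name. The labels name no cell type to which the knockout was restricted, and total RNA came from the whole retina. Whether each array carried RNA of a single mouse or of several pooled is not stated, so the tests measure the spread between samples, which may be technical. Age and any processing step done separately for each age cannot be told apart.

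Nrl is a basic leucine zipper transcription factor that commits photoreceptor precursors to the rod fate, together with Crx and Nr2e3. Without it no rods form, and the cells that would have been rods become photoreceptors that resemble S cones, the cones with short-wave opsin. The neonatal retina still holds dividing progenitors, which in the following days give rise to the last photoreceptors, bipolar cells and Müller glia. Synapses, outer segments and the vessel network mature afterwards.

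Intensities are on the linear RMA scale, a summary of the probes of a probe set. Changes are log2 differences of 2 months minus P2 with their standard error, and adjusted p-values come from limma. Intensities of different genes are not comparable as levels of RNA. Medians of the 24 arrays ran from 61.7 to 71.7, the lowest being Nrl-/- P2 replicate 1. Correlations between knockout arrays of 1 group lay between 0.983 and 0.997. A gene was represented by its brightest probe set with 1 symbol, which gave 8251 genes. Nrl itself, whose probes the labels do not place inside or outside the deleted part, read 45.2, 49, 56.4 and 54.6 at P2 and 54.2, 52.8, 62.7 and 48.3 at 2 months in the knockout. These ranges overlapped, and the change of 0.09 ± 0.11 did not pass (adjusted p = 0.517). In wild-type retina Nrl rose by 1.25, and the difference between genotypes was -1.16 ± 0.15 (adjusted p = 4.48e-06).

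Several arrays stood apart in genes of other tissues or of the sexes. Summed over 11 lens genes, the knockout P2 replicates reached 664.5, 896, 4974 and 2076, and the 2 month replicates 868 to 1444. Among these 8 arrays the sum was thus highest in P2 replicates 3 and 4. It ran from 933 to 3353 in the knockout at P10, from 797 to 2639 in wild type at P2 and from 2140 to 3354 in wild type at 2 months, so adult wild-type arrays held more lens RNA than adult knockout ones, and its part in the peaks and in the genotype differences was not tested. Only 2 of the 11 lens genes passed, Crygs and Crybb2, both higher, and both calls were lost in a fit to only the arrays compared. Xist, which is transcribed from the inactive X chromosome of females, read 313, 193, 159 and 187 at P2 and 8.9, 9.23, 209 and 179 at 2 months. Its 2 month arrays fell apart into replicates 1 and 2, which were at the dim end of the array, and replicates 3 and 4, which were in the P2 range. The sexes in the samples therefore differed between arrays, and the part of sex in the results was not tested. Without P2 replicate 1 or P2 replicate 3, the counts of called cone, shared photoreceptor, rod, cell cycle, progenitor and synapse genes given below moved by at most 1 gene.

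Between P2 and 2 months the knockout retina gained phototransduction, synaptic, glial and glycolytic transcripts and lost those of dividing and immature cells. At an adjusted p under 0.05, 5872 of 12422 probe sets changed (47.3%), of which 3272 were higher and 2600 lower. A change of at least 2-fold was called for 1010 probe sets, 8.13% of those tested, with 455 higher and 555 lower. Per gene, 2339 were higher (28.3%) and 1966 lower (23.8%), against a median log2 change over all genes of 0.09. The 4 values at 2 months lay wholly on one side of the 4 at P2 for 3529 genes (42.8%). Changes of at least 8-fold were rare, with 23 genes higher and 31 lower. The split between directions depended on how arrays were set against each other. Centring each array on its median gave 2566 probe sets higher and 2912 lower, and leaving out P2 replicate 1 gave 2502 higher and 2585 lower.

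**Figure D1:**
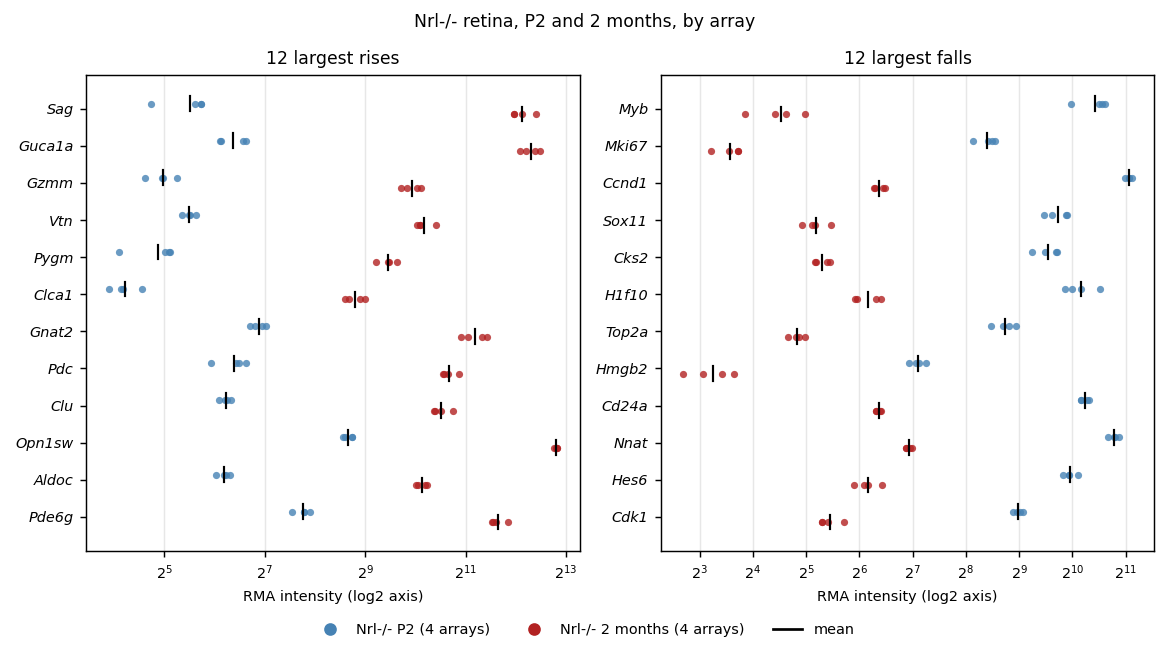
RMA intensity on a log2 axis in each Nrl-/- array for the 12 genes with the largest rise (left) and the 12 with the largest fall (right) among those called and chosen to have no overlap between the ages, with P2 in blue, 2 months in red and a black bar at the mean of 4 arrays. Sag at P2 ranges from 26.7 to 53.4 against 3970 to 5397 at 2 months.

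The genes of cone phototransduction all rose. All 7 measured members were called higher, against 28.3% of all genes, with a median change of 2.89 against 0.09 over all genes. In 7 of 7 the 2 age groups did not overlap, against 42.8% of all genes. Opn1sw, the short-wave opsin, read 386, 376, 426 and 426 at P2 and 6908, 7253, 7103 and 7226 at 2 months. The 4 adult arrays were within a narrow band far above all neonatal ones, a rise of 4.14 ± 0.12 (adjusted p = 6.88e-21). At P10 it already stood at 3902 ± 299 (SD, n = 4). Gnat2, the α subunit of cone transducin, went from 113, 104, 123 and 130.2 to 2123, 2561, 1911 and 2761. Each adult array exceeded each neonatal one by a wide margin, and the rise was 4.30 ± 0.13 (adjusted p = 8.19e-21).

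Opn1mw, the middle-wave opsin, followed another course. It read 61.7, 69.8, 84.9 and 63.1 at P2, 99.3, 69.9, 77 and 73.1 at P10 and 469.8, 500.0, 741 and 811 at 2 months. P2 and P10 overlapped, so its rise of 3.15 ± 0.17 (adjusted p = 2.73e-15) fell between P10 and 2 months. Gnb3, the cone transducin β subunit, rose by 2.89 ± 0.15, from 505, 521, 795 and 701 to 3734, 4428, 4990.4 and 5378. For Gngt2, the cone transducin γ subunit, the values were 208, 174, 201 and 215 at P2 and 872, 893, 850.5 and 940.2 at 2 months. The adult arrays lay close together and stood above all P2 arrays. Cnga3, a subunit of the cone cyclic nucleotide-gated channel, rose by 1.57 ± 0.11, and Gnb5, which partners the GTPase-activating protein Rgs9, rose by 2.36 ± 0.10.

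Genes that rods and cones share rose as uniformly. All 13 measured were called higher, against 28.3% of all genes, with a median of 2.94. The groups were apart in 13 of 13, against 42.8% of all genes. The largest rise among all genes belonged to Sag, arrestin-1, which ends the light response. Its P2 values were 49.1, 26.7, 52.9 and 53.4, and its 2 month values 3970.2, 4436, 4009.5 and 5397. P2 replicate 2 was lowest, and no adult array came near the neonatal range (change 6.65 ± 0.18, adjusted p = 6.25e-22). Guca1a, an activator of photoreceptor guanylate cyclase, read 69.7, 68.8, 99 and 95.1 at P2 and 4356, 4695, 5309 and 5713 at 2 months. Its groups were as far apart, with a change of 5.93 ± 0.19 (adjusted p = 3.76e-20).

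Pdc, phosducin, which binds transducin βγ, read 85.8, 61.3, 99 and 89.3 and then 1605, 1507, 1513 and 1872, a rise of 4.29 ± 0.10. A second Pdc probe set changed by 0.30 and did not pass (adjusted p = 0.102). Rom1, a protein of the outer segment disc rim, rose by 3.80 ± 0.11 from 25.6, 23.5, 35.4 and 34.3 to 436, 386, 353 and 465. Its neonatal intensities were near the lower quartile of all intensities, 28.0, where array background makes a fold less certain. Rcvrn, recoverin, rose by 3.14 ± 0.11, Tulp1, a protein of photoreceptor transport, by 3.12 ± 0.08, and Abca4, the outer segment retinoid flippase, by 2.94 ± 0.09. Crx, the photoreceptor homeobox factor, was already at 499.6 to 562 at P2 and rose by 1.52 ± 0.08. Prph2, the partner of Rom1, split at 2 months into 387, 204, 401 and 179.9. Replicates 1 and 3 were high and replicates 2 and 4 low, yet all stood above the P2 range of 116 to 138 (change 1.14 ± 0.33, adjusted p = 0.00601). The smallest rises were those of Rgs9, at 0.62 ± 0.10, and Gucy2e, guanylate cyclase 2e, at 0.55 ± 0.08.

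Rod genes behaved unevenly. Of 9 measured, 4 were called higher (44.4% against 28.3% of all genes) and none lower (against 23.8%), with a median of 0.67. That median was 0.24 without 2 month replicate 1. Pde6g, the γ subunit listed as rod phosphodiesterase, read 219, 185, 241 and 221 at P2 and 3132, 3006, 2956 and 3668 at 2 months. It was the only rod-listed gene among the 12 largest rises of the knockout (change 3.88 ± 0.08, adjusted p = 1.31e-23). Pde6b, the rod phosphodiesterase β subunit, read 18.2, 14.2, 20.4 and 18.2 and then 83, 60.7, 59.9 and 76.5. Every adult array was above every P2 array (change 1.98 ± 0.13), but the P2 values lay under the lower quartile of all intensities, so the size of the fold is uncertain. Reep6, a membrane-shaping protein of rods, rose by 1.48 ± 0.09, and Pde6a by 0.97 ± 0.16.

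The other rod genes did not pass. Gnat1, the rod transducin α subunit, read 13.5, 11.7, 15.6 and 10.9 at P2 and 67.8, 12.9, 14.8 and 13.6 at 2 months. Only 2 month replicate 1 was raised, with the other 3 adult arrays in or next to the neonatal range (change 0.67 ± 0.35, adjusted p = 0.114). With array weights the change was 1.08 and passed, which made 5 rod genes higher. In wild-type retina the same probe set went from 13.1, 12.8, 25.9 and 15.3 to 5601, 5952, 5368 and 4624. Cnga1, a subunit of the rods' cyclic nucleotide-gated channel, read 15.6, 17.4, 19.3 and 17.6 at P2 and 16.6, 19.5, 18.8 and 14.8 at 2 months, with full overlap (change -0.01 ± 0.10, adjusted p = 0.952). Esrrb, a nuclear receptor of rods, changed by 0.22 ± 0.12 and Gnb1 by -0.02 ± 0.15. Gnat1 and Cnga1, which mark rods, were thus at or near their neonatal intensity in the adult knockout, except for Gnat1 in replicate 1.

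**Figure D2:**
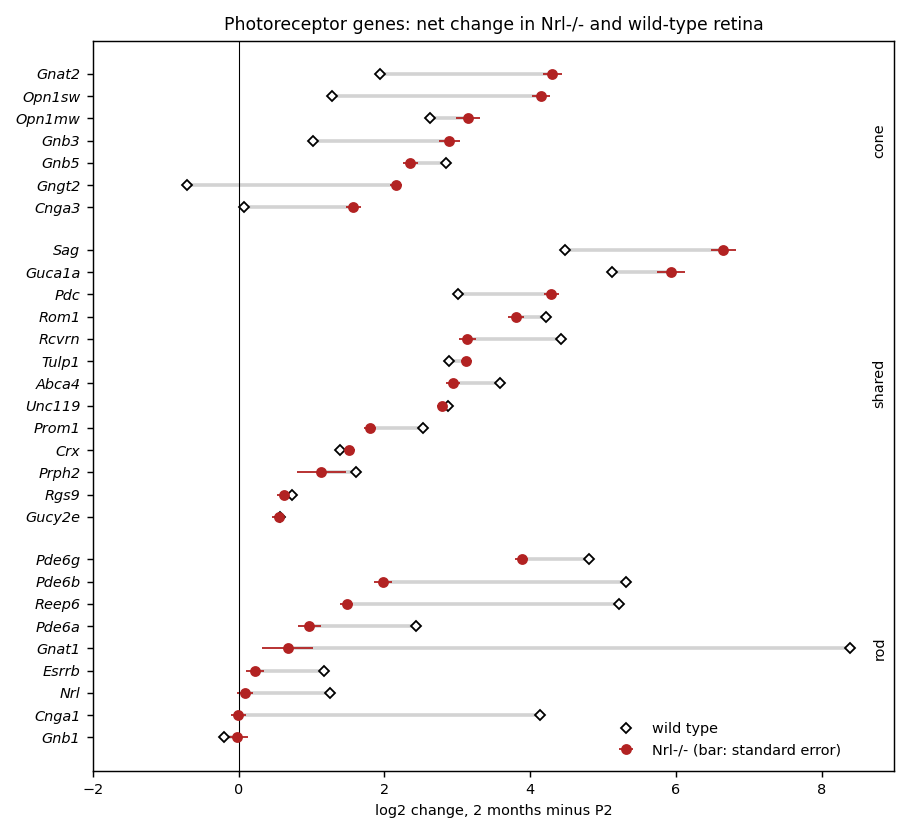
Log2 change from P2 to 2 months of the measured photoreceptor genes, grouped as cone, shared and rod, in Nrl-/- retina (red circles, bars are standard errors) and wild-type retina (open diamonds), each from 4 arrays per age. Cone genes other than Gnb5 lie further right in the knockout, and rod genes such as Gnat1 (0.67 against 8.38) lie far left of the wild type.

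The promoters of the genes that rose most are shown because several photoreceptor genes hold the core site of CRX, TAATCC, a homeobox motif read on both strands (its reverse complement is GGATTA). The runs are the 250 bases before the annotated start, 5′ to 3′ on the gene's strand, from RefSeq on GRCm38.p6. Capitals mark the match. Sag and Guca1a were chosen as the cone or shared photoreceptor genes with the largest called rises among those that hold the site. The Sag promoter lies on the plus strand at chr1:87803430-87803679, and its match starts at -87 from the gene's start. That of Guca1a lies on the minus strand at chr17:47400607-47400856, with a match from -57.
Sag: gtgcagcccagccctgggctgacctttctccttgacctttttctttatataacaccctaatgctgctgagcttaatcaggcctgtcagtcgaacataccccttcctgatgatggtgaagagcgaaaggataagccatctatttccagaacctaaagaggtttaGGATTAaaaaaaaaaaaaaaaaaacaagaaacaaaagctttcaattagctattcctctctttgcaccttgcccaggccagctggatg
Guca1a: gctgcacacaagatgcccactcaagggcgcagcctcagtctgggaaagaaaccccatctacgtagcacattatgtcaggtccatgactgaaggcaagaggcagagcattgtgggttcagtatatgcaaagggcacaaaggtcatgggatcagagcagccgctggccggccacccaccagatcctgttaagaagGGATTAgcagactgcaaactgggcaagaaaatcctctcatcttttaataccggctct
Among the cone and shared photoreceptor genes called higher, 17 of 20 had a promoter in the table, and 8 of their 21 promoters (38.1%) held TAATCC within 250 bases before to 50 after the start. The share was 7.06% of all 32851 promoters, 5.63% of those of measured genes, and 7.67% and 3.95% of those of genes that rose or fell by at least 2-fold. A match says only that these letters are present, and no test was run.

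Genes of the cell cycle and DNA replication formed the largest block of falls. Of 56 measured, 50 were called lower (89.3% against 23.8% of all genes) and none higher, with a median of -1.86. The groups were apart in 50, against 42.8% of all genes. Mki67, the antigen Ki-67 of cycling cells, read 373, 358, 281 and 340.3 at P2 and 11.8, 13.2, 13.1 and 9.3 at 2 months. The adult values sat at the dim end of the array, so the change of -4.84 ± 0.12 (adjusted p = 4.44e-22) carries an uncertain size. A second, dim Mki67 probe set did not pass (-0.02, adjusted p = 0.923). Ccnd1, cyclin D1, the cyclin that drives retinal progenitors through G1, read 2029, 2146, 2137 and 2225 and then 87.4, 77.7, 89.2 and 78.1. Both groups were tight, with the adult values a little above the array medians of 61.7 to 71.7. The change was -4.69 ± 0.10 (adjusted p = 1.31e-23).

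Top2a, the DNA topoisomerase of proliferating cells, read 495, 448, 353 and 415 at P2 and 29, 28.1, 31.5 and 25.3 at 2 months. At P10 it was already at 23.7 to 32.8, in the adult range, so the fall of 3.90 ± 0.12 was complete by P10. Cks2, a Cdk1-binding protein, read 840.0, 718, 603 and 829 and then 35.8, 36.2, 43.4 and 42. All adult arrays were far below all neonatal ones (change -4.24 ± 0.10). Cdk1, the mitotic kinase, read 515, 472, 497 and 538 at P2 and 39.4, 42.7, 52.5 and 39.5 at 2 months and fell by 3.55 ± 0.09 (adjusted p = 5.98e-22). Hmgb2, a chromatin protein of dividing cells, fell by 3.89 ± 0.14, to values between 6.47 and 12.4. The 6 members that did not pass were Mcm6, Ccnd2, Ccne1, Ccne2, Dut and Pola2, with changes between -0.16 and 0.23.

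Cell cycle promoters are shown for the E2F site, since E2F factors drive replication genes and 4 spellings of its consensus were searched on both strands: TTTCCCGC, TTTCGCGC, TTTGCCGC and TTTGGCGC. Cdk1 and Mcm5 were chosen as the cell cycle genes with the largest called falls among those that hold a spelling. Mki67, Ccnd1, Cks2 and Top2a fell further and are not shown. The Cdk1 promoter lies on the minus strand at chr10:69352913-69353162, with a match from -131. That of Mcm5, a helicase subunit that loads at replication origins and whose change was -3.25 ± 0.09, lies on the plus strand at chr8:75109259-75109508, with TTTCGCGC from -153 and, overlapping it on the other strand, GCGCCAAA from -149.
Cdk1: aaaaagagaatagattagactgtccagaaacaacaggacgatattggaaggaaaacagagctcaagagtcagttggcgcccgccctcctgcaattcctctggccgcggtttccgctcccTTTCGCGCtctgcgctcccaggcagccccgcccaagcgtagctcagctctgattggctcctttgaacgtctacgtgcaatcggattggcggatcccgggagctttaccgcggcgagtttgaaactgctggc
Mcm5: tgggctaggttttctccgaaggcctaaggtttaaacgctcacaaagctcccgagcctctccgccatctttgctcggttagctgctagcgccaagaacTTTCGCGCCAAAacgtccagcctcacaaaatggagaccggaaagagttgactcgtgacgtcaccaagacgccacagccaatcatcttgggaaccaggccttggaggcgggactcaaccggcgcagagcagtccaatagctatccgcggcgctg
Of the 50 cell cycle genes called lower, 42 had a promoter in the table, and 11 of their 47 promoters (23.4%) held a spelling. The share was 2.26% of all promoters, 3.52% of those of measured genes, 11.0% of those of genes that fell by at least 2-fold and 2.23% of those that rose by as much. None of the 21 photoreceptor promoters held one, and 1 of the 47 cell cycle promoters held TAATCC.

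The progenitor and neurogenic genes fell with them, at a median of -1.09. Of 46 measured, 36 were called lower (78.3% against 23.8% of all genes) and 2 higher (4.35% against 28.3%). Sox11, a transcription factor of newborn neurons, read 790.4, 703, 939.8 and 959 at P2 and 30.5, 36, 44.3 and 34.3 at 2 months. At P10 it stood between these, at 82.3 to 116, and its net change was -4.55 ± 0.14 (adjusted p = 8.19e-21). Sox4, its relative, read 1386, 1350.0, 1692 and 1399 and then 124, 131, 118 and 131. The adult arrays lay close together and far below P2, where replicate 3 was highest (change -3.53 ± 0.11). Hes6, an inhibitor of Hes1 that favours neurogenesis, fell by 3.81 ± 0.12, and Zfp36l1, an RNA-binding protein that destabilises transcripts, by 2.81 ± 0.12. The 2 members that rose were Neurod1, a photoreceptor and amacrine bHLH factor, by 0.33 and Rfng, a Notch-modifying glycosyltransferase, by 0.47.

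The largest fall of all was that of Myb, a transcription factor of cycling progenitors. It read 1440.3, 1502, 1005 and 1565 at P2, 109, 128, 112 and 139 at P10 and 21.4, 14.4, 24.7 and 31.4 at 2 months. The 3 ages were wholly apart, and the net change was -5.94 ± 0.18 (adjusted p = 1.07e-20). A second Myb probe set read below 10 at all 3 ages and did not change (0.04, adjusted p = 0.696). Further large falls were those of H1f10, a linker histone, by 3.99 ± 0.14, Cd24a, a surface glycoprotein of immature neurons, by 3.87 ± 0.10, and Nnat, the imprinted gene of neuronatin, by 3.86 ± 0.11. Nnat read 1632, 1886, 1756 and 1784 at P2, 985 ± 49.8 at P10 (SD, n = 4) and 118, 117, 127 and 124 at 2 months. More of its fall thus came after P10 than before, unlike Top2a or Mki67.

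Genes of growing axons and migrating neurons fell in part. Of 44 measured, 24 were called lower (54.5% against 23.8% of all genes) and 4 higher (9.09% against 28.3%), with a median of -0.41. Marcksl1 and Marcks, actin-regulating substrates of protein kinase C, fell by 3.53 ± 0.10 and 2.83 ± 0.11. Marcksl1 read 964, 1098, 950.3 and 1178 at P2 and 81.9, 86.6, 85.6 and 110.4 at 2 months. All adult values were far below all neonatal ones, with replicate 4 the highest of them. Dcx, doublecortin of migrating neurons, fell by 2.55 ± 0.09, and Gap43, a growth cone protein, by 2.12 ± 0.11.

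Chromatin and splicing genes, and those of ribosomal proteins, also declined as groups. Of 42 chromatin and splicing genes, 37 were lower (88.1% against 23.8% of all genes) and 2 higher (4.76% against 28.3%). Their median was -0.64. The falls were led by H2ax, a histone of the DNA damage response (-3.07 ± 0.13), Ezh2, the Polycomb methyltransferase (-2.89 ± 0.10), and Hmgb3 (-2.77 ± 0.09). Of 30 ribosomal protein genes, 20 were lower (66.7% against 23.8% of all genes) and 2 higher (6.67% against 28.3%), with a median of -0.64. Rplp0, of the ribosomal stalk, read 5039, 4252, 4593 and 4598 at P2 and 1638, 1302, 1517 and 1610.1 at 2 months. The groups were far apart, with a change of -1.61 ± 0.09 (adjusted p = 3.72e-15). Histone and ribosomal protein genes have close copies in the genome, and their probe sets may read more than 1 of them.

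**Figure D3:**
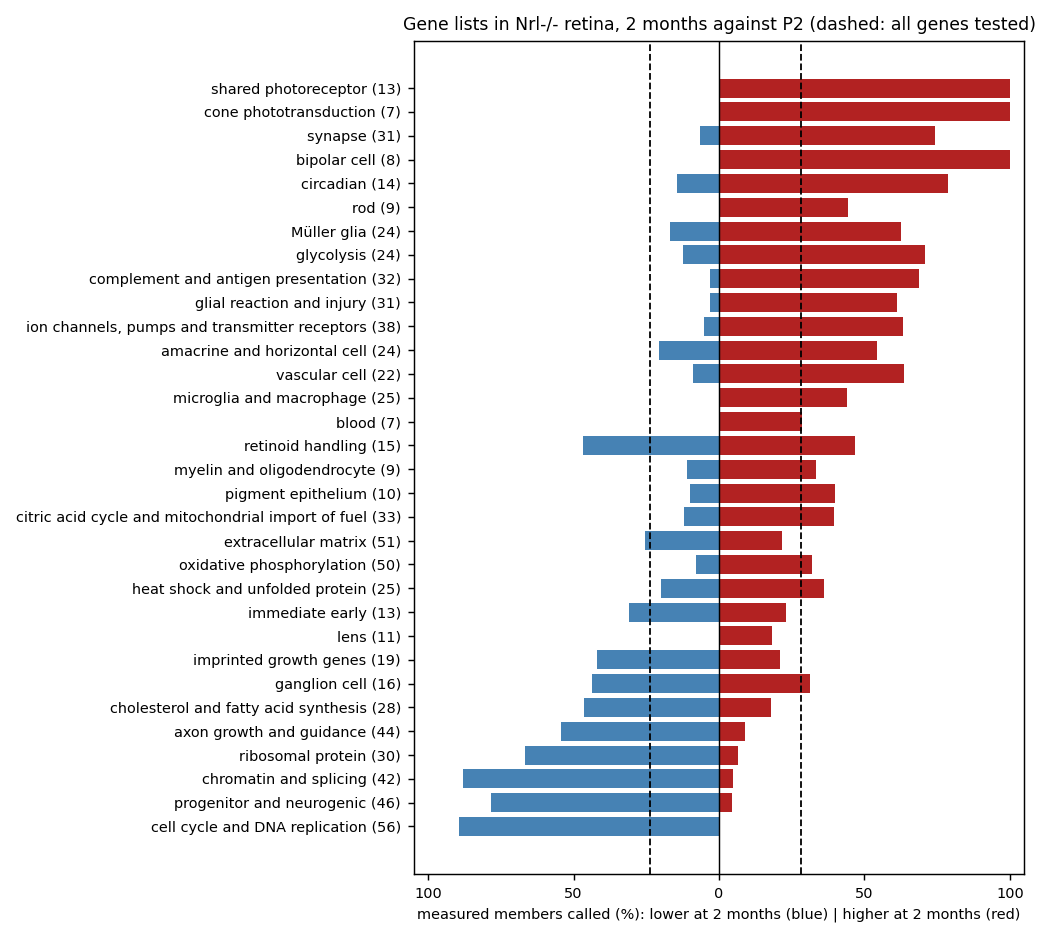
Percent of the measured members of each gene list, without the sex-linked one, called lower (blue, left) or higher (red, right) at 2 months than at P2 in Nrl-/- retina, with the number measured in parentheses and lists ordered by median change. Dashed lines mark the shares over all genes, 28.3% higher and 23.8% lower; cell cycle genes are lower in 89.3%, and every measured cone, shared photoreceptor and bipolar gene is higher.

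Synaptic genes rose broadly. Of 31 measured, 23 were called higher (74.2% against 28.3% of all genes) and 2 lower (6.45% against 23.8%), at a median of 0.96. Stx3, the syntaxin of ribbon synapses, read 58.9, 60.3, 78.9 and 78.8 at P2 and 460.4, 352, 404 and 475 at 2 months. No value overlapped (change 2.62 ± 0.13, adjusted p = 2.31e-16), and at P10 it had reached 307 to 328. Dnm1, dynamin 1 of vesicle retrieval, rose by 2.24 ± 0.09, and Sncb, β-synuclein, by 2.14 ± 0.09. Syt1, the calcium sensor of vesicle release, read 143, 198, 93.2 and 177 and then 703, 709.6, 382 and 702. Replicate 3 was the lowest array at both ages, and the rise was 2.04 ± 0.21 (adjusted p = 2.17e-09).

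Among ion channels, pumps and transmitter receptors, 24 of 38 were higher (63.2% against 28.3% of all genes) and 2 lower (5.26% against 23.8%). Their median was 0.35. Drd4, the dopamine receptor of photoreceptors, read 62.9, 90.7, 82.8 and 83.8 at P2 and 461, 380.2, 488 and 547 at 2 months. All adult arrays stood far above P2, and P10 lay just above it, at 124 to 131 (net change 2.55 ± 0.19). Kcnma1, the large-conductance calcium-activated potassium channel, rose by 2.49 ± 0.09, Kcnab2, a potassium channel β subunit, by 2.19 ± 0.10, and Atp1b2, a β subunit of the sodium pump, by 2.25 ± 0.21.

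Markers of inner retinal neurons changed by class. All 8 measured bipolar genes were higher, against 28.3% of all genes, at a median of 0.89. Car8, a carbonic anhydrase-related protein, read 40.3, 20.5, 30.5 and 25.4 at P2 and 135, 229, 128 and 135 at 2 months, with replicate 2 highest among the adults (change 2.43 ± 0.18). Pcp2, of ON bipolar cells, read 308, 376, 392 and 384 and then 709, 766, 931 and 872, apart at a change of 1.16 ± 0.08. Prkca, protein kinase Cα of rod bipolar cells, rose by 1.00 ± 0.08, and Rgs11, a GTPase-activating protein of ON bipolar dendrites, by 1.70 ± 0.12. A second, very dim Rgs11 probe set did not pass.

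Amacrine and horizontal cell genes were higher in 13 of 24 (54.2% against 28.3% of all genes) and lower in 5 (20.8%, near the background of 23.8%). The members that rose most belong to mature transmitter systems: Calb1, calbindin (2.38 ± 0.10), Gad1, which makes GABA (1.75 ± 0.11), Cck, cholecystokinin (1.74 ± 0.09), and Slc32a1, the vesicular inhibitory amino acid transporter (1.39 ± 0.08). Lower were the transcription factors Tfap2a, Tfap2b, Tfap2c and Ebf3 and the neuropeptide gene Npy, by 0.30 to 0.94. Of 16 ganglion cell genes, 5 were higher (31.2%, near the background of 28.3%) and 7 lower (43.8% against 23.8% of all genes). Nefh, the heavy neurofilament, rose by 1.52 ± 0.10 and Thy1 by 1.18 ± 0.10, while Ina, α-internexin, the neurofilament of developing neurons, fell by 1.15 ± 0.09. In whole retina, fewer cells of a type and less RNA per cell cannot be told apart, here and for every list above and below.

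Müller glia genes were called higher in 15 of 24 (62.5% against 28.3% of all genes) and lower in 4 (16.7% against 23.8%). Their median was 0.59. Aqp4, the water channel of glial end feet, read 17.7, 17.4, 17.1 and 14.4 at P2, 33.8, 42.8, 34.2 and 36.6 at P10 and 212, 235, 181 and 209 at 2 months. The ages were wholly apart and most of the rise of 3.65 ± 0.13 (adjusted p = 2.78e-19) came after P10. Clu, clusterin, an extracellular chaperone, read 80.5, 67.8, 76.1 and 74.1 at P2 and 1725, 1344, 1330.0 and 1462 at 2 months (change 4.29 ± 0.10). Apoe, the lipid carrier, took another course, with 556, 404, 506 and 562 at P2, 2972, 3029.5, 3019 and 3293 at P10 and 2603, 2553, 2585 and 2932 at 2 months. All P10 values but none at P2 exceeded the adult range (net change 2.41 ± 0.09). Mt1, a metallothionein with close copies, rose by 2.96 ± 0.10.

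Genes of glial reaction and injury were higher in 19 of 31 (61.3% against 28.3% of all genes) and lower in 1 (3.23% against 23.8%). Cebpd, a transcription factor of the acute phase, read 43.2, 25, 21.4 and 27 at P2 and 219, 188, 134 and 211 at 2 months, apart at a change of 2.72 ± 0.16 (adjusted p = 3.17e-14). Osmr, the oncostatin M receptor, rose by 1.85 ± 0.12 from dim P2 values of 9.99 to 12.9. Nes, nestin, which progenitors also express, was the 1 member that fell, by 1.97 ± 0.10. Of 32 complement and antigen presentation genes, 22 were higher (68.8% against 28.3% of all genes). The proteasome activator Psme1 was the 1 lower member (3.12% against 23.8%). H2-K1, a class I histocompatibility gene, read 60.6, 71.3, 67.3 and 66.4 at P2 and 259.8, 247, 229 and 252 at 2 months. Its groups were far apart (change 1.90 ± 0.07, adjusted p = 2.25e-18), though the class I genes are near copies. Other probe sets of H2-K1 rose less, by 0.82 and 0.35 (adjusted p = 7.09e-11 and 0.0431 in limma). Cd59a, an inhibitor of the complement pore, rose by 1.88 ± 0.12, and Ifit3, an interferon target, by 1.01 ± 0.08.

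Markers of microglia and macrophages rose less. Of 25 measured, 11 were higher (44.0% against 28.3% of all genes) and none lower, at a median of 0.20. The count higher was 7 without P2 replicate 1 or without 2 month replicate 3. The ages did not overlap in only 5 of the 25, against 42.8% of all genes. Their summed intensity ran from 1193 to 1410 at P2 and from 1462 to 1631 at 2 months. Ctss, cathepsin S, read 45.8, 30.9, 32.9 and 33.7 at P2 and 87.7, 71.1, 75.6 and 90 at 2 months, without overlap (change 1.19 ± 0.10, adjusted p = 4.14e-11). The part of these cells in the rise of the complement genes was not tested. Of 7 blood genes, 2 were higher (28.6%, near the background of 28.3%) and none lower, and the ages did not overlap in 1. Their sums were 428 to 464.9 at P2 and 741 to 899 at 2 months. Much of this lay in Hba-a1, an α-globin gene with a near-identical copy, whose mean went from 201 to 532 (change 1.40 ± 0.11).

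Vascular genes were higher in 14 of 22 (63.6% against 28.3% of all genes) and lower in 2 (9.09% against 23.8%), but all within 2-fold. Kdr, the receptor VEGFR2, read 311, 271, 235 and 189 at P2 and 161, 132, 123 and 125 at 2 months, a fall of 0.88 ± 0.12 without overlap. Flt1, VEGFR1, rose by 0.66 ± 0.09. Extracellular matrix genes were near the background, with 11 of 51 higher (21.6% against 28.3% of all genes) and 13 lower (25.5% against 23.8%), and 7 higher without 2 month replicate 3. Mfap2, a microfibril protein, fell by 2.76 ± 0.10, from 235, 267, 251 and 275 to 38.6, 37.6, 38.3 and 37.3. Its 4 adult values were nearly equal. Sparcl1, a matrix protein of astrocytes and vessels, rose by 2.19 ± 0.10.

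Glycolytic genes were higher in 17 of 24 (70.8% against 28.3% of all genes) and lower in 3 (12.5% against 23.8%). Pygm, glycogen phosphorylase of muscle, which frees glucose from glycogen, read 17.1, 32.5, 34.7 and 34 at P2 and 715, 701, 593 and 799 at 2 months. P2 replicate 1 was lowest, and the rise of 4.62 ± 0.15 (adjusted p = 5.41e-20) rests on neonatal values near the lower quartile. Aldoc, aldolase C, read 65.1, 79.4, 75.1 and 72.6 and then 1167, 1060.4, 1031 and 1201 (change 3.93 ± 0.12). Hk2, the hexokinase bound to mitochondria in photoreceptors, read 108, 101, 117 and 125 at P2, 158, 172, 171 and 166 at P10 and 1219, 1111, 1352 and 1638 at 2 months. It was only slightly raised at P10, and most of its rise of 3.55 ± 0.11 came later. Eno2, the neuronal enolase, rose by 3.23 ± 0.10, with 448 to 507 at P10.

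Mitochondrial genes moved less. Of 50 oxidative phosphorylation genes, 16 were higher (32.0%, near the background of 28.3%) and 4 lower (8.0% against 23.8% of all genes). Their median of 0.09 was equal to that of all genes. Sdha, a subunit of succinate dehydrogenase, was the 1 member past 2-fold, at 1.07 ± 0.11. In the citric acid cycle and fuel import list, 13 of 33 were higher (39.4% against 28.3% of all genes) and 4 lower (12.1% against 23.8%). Cpt1a, which admits fatty acids to mitochondria, rose by 2.25 ± 0.09, and Ckmt1, mitochondrial creatine kinase, by 2.37 ± 0.11, while Idh1, the cytosolic isocitrate dehydrogenase, fell by 1.45 ± 0.10. Genes of cholesterol and fatty acid synthesis were lower in 13 of 28 (46.4% against 23.8% of all genes) and higher in 5 (17.9% against 28.3%). Those that fell included the pathway enzymes Hmgcs1 (-1.40 ± 0.12), Idi1 (-1.35 ± 0.11) and Sqle (-1.32). Those that rose most were the cholesterol exporter Abca1 (2.16 ± 0.13) and the elongase of long fatty acids Elovl2 (1.44 ± 0.17).

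Retinoid genes divided evenly, with 7 of 15 higher (46.7% against 28.3% of all genes) and 7 lower (46.7% against 23.8%). Rlbp1, which carries 11-cis-retinal in Müller glia, read 188, 163, 172 and 178 at P2 and 610.3, 542, 527 and 637 at 2 months, a rise of 1.72 ± 0.08. Crabp1 and Crabp2, which bind retinoic acid, fell by 2.03 ± 0.11 and 1.58 ± 0.12, and Cyp26a1, which breaks it down, by 1.88 ± 0.08. Rxrg, a retinoid receptor of cones, rose by 1.16.

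Of 14 circadian genes, 11 were higher (78.6% against 28.3% of all genes) and 2 lower (14.3% against 23.8%), with a median of 0.80. Dbp, a clock output factor, read 35, 43, 51.4 and 49.4 at P2 and 215, 204, 236 and 249.6 at 2 months, far apart (change 2.35 ± 0.10). Bhlhe40 rose by 2.25 ± 0.10, and Nr1d1 and Nr1d2, repressors of the clock, by 1.48 ± 0.11 and 1.41 ± 0.11. The labels give no hour of collection, so the part of the time of day was not tested. Among 13 immediate early genes, 3 were higher (23.1%) and 4 lower (30.8%), near the shares of 28.3% and 23.8% over all genes. Fos rose by 3.40 ± 0.19 to 62.7, 61.9, 79 and 151, with replicate 4 far above the others. Its P2 mean lay under the lower quartile of all intensities, so the size of the fold is uncertain. A second, dim Fos probe set rose by 0.22 (adjusted p = 0.0494 in limma). Of 25 heat shock genes, 9 were higher (36.0%) and 5 lower (20.0%), also near those shares. The largest rises belonged to the near-identical Hspa1a (1.71 ± 0.09) and Hspa1b (1.5 ± 0.09).

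Imprinted growth genes fell in 8 of 19 (42.1% against 23.8% of all genes) and rose in 4 (21.1% against 28.3%). Plagl1, a zinc finger factor of the imprinted network, fell by 2.47 ± 0.10, and Cdkn1c, the inhibitor p57, by 1.62 ± 0.11. Mest read 95.8, 95.3, 80.9 and 118 at P2, 77.6, 94.5, 66.9 and 81.9 at P10 and 16.6, 18.4, 13.6 and 20.3 at 2 months. P2 and P10 overlapped, so the fall of 2.51 ± 0.13 came after P10. Pigment epithelium genes were higher in 4 of 10 (40.0% against 28.3% of all genes) and lower in 1 (10.0% against 23.8%). Their sums were 633 to 696 at P2 and 787 to 846 at 2 months. Krt18, a keratin of that epithelium, rose by 1.36 ± 0.09. In the myelin list 3 of 9 were higher (33.3%, near the background) and 1 lower (11.1% against 23.8%), by at most 0.40. Its sums were 600.4 to 753 at P2 and 695 to 834 at 2 months.

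Most net change between P2 and 2 months passed through P10 without leaving the range of the 2 ages, but some genes peaked or dipped there. The P10 mean lay above both others for 1989 genes (24.1%) and below both for 987 (12%). With both steps called in opposite directions, 197 genes peaked (2.39%) and 55 dipped (0.667%). Of the 197 peaks, 115 had no called net change, 57 ended higher and 25 lower. Of the 55 dips, 28 had no called net change, 8 ended higher and 19 lower. The median of the smaller step was 0.35 for peaks and 0.34 for dips. Both steps reached 2-fold in 5 peaks and in no dip, although 55 dips passed at adjusted p under 0.05 in limma.

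Gas2, a growth arrest protein that binds actin and microtubules, had the tallest peak. It read 28.8, 54.7, 40.2 and 51.3 at P2, 259, 396, 194 and 214 at P10 and 46, 74.2, 39.1 and 53.7 at 2 months. All P10 arrays were far above the others, which overlapped each other (P10 minus P2 2.59 ± 0.20, 2 months minus P10 -2.30 ± 0.20). Htra1, a secreted serine protease, read 166, 132, 155 and 145 at P2, 927, 974, 991 and 966 at P10 and 434, 353, 399 and 476 at 2 months. The ages did not overlap, and it ended higher than it began (net 1.47 ± 0.09). Isl1, a homeobox factor of bipolar, amacrine and ganglion cells, read 58.6, 62.3, 56.2 and 66.3, then 197, 213, 140.5 and 188, then 85.8, 84.4, 76.2 and 90.9. Its P10 arrays were all above the rest, and the net change was 0.47 ± 0.10. Npy, neuropeptide Y, read 225, 241, 231 and 262 at P2, 471, 544, 521 and 539 at P10 and 185, 207, 183 and 203 at 2 months, with the P10 arrays far above both other groups. The net call of Npy (-0.30 ± 0.12) was lost without P2 replicate 2 or 4 or without 2 month replicate 1 or 3. Trak2, which links mitochondria to motors, and Tnfsf9, a ligand of the tumour necrosis factor family, peaked with smaller steps of 1.09 and 1.00. In the lists, 7 of 22 vascular genes peaked (Cdh5, Tie1, Eng, Cldn5, Rgs5, Ramp2 and Angpt2), as did 5 of 51 matrix genes, against 2.39% of all genes.

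**Figure D4:**
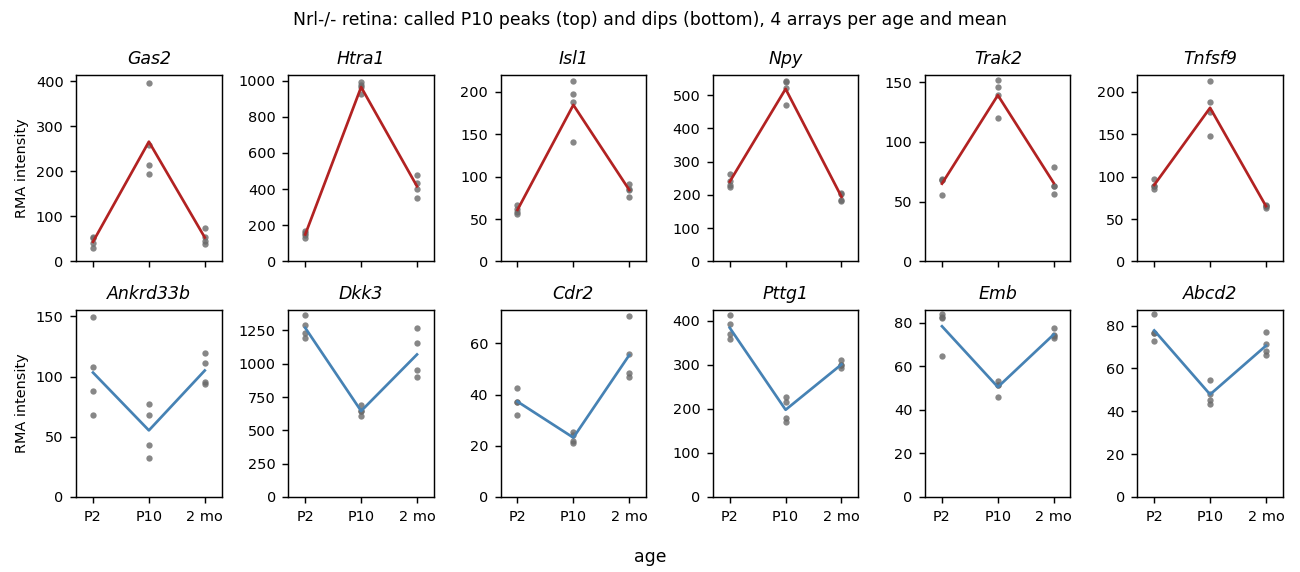
RMA intensity in Nrl-/- retina at P2, P10 and 2 months for the 6 largest called peaks (top) and 6 largest called dips (bottom), with 1 grey point per array (n = 4 per age) and lines through the means. Gas2 at P10 lies between 194 and 396 against 28.8 to 74.2 at the other ages, and the Ankrd33b arrays overlap between ages.

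Dips were shallower. Dkk3, a secreted protein of Müller glia, read 1366, 1289, 1231 and 1193 at P2, 690.2, 644, 642 and 605 at P10 and 1269.5, 955, 901 and 1153 at 2 months. Every P10 value lay under every other, with steps of -0.98 ± 0.11 and 0.72 ± 0.11, and the small net change (-0.26 ± 0.11) lost its call without P2 replicate 1, 2 or 3 or without 2 month replicate 2 or 3. Cdr2, cerebellar degeneration-related protein, read 31.9, 37.3, 37.2 and 42.6, then 25.4, 21.1, 21.9 and 24.4, then 55.9, 48.3, 46.9 and 70.6. The P10 arrays were lowest, though dim, and the net change was 0.56 ± 0.11. Pttg1, securin, which restrains the separation of sister chromatids, read 413, 359.6, 371 and 394 at P2, 226, 179, 171 and 216 at P10 and 312, 299, 293 and 300.0 at 2 months, with no overlap between ages. A second, dim Pttg1 probe set showed no such course. Ankrd33b read 88, 67.9, 149 and 108 at P2, 32.3, 67.8, 77.6 and 43.6 at P10 and 95.5, 111, 93.7 and 119.6 at 2 months. Its P2 and P10 arrays overlapped, unlike those of Emb, a partner of lactate transporters, and Abcd2, a peroxisomal fatty acid transporter, whose P10 values were all lowest.

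The net change in wild-type retina was set beside that of the knockout to find where they differed. In wild type 4160 genes (50.4%) were called, and 3245 genes changed the same way in both genotypes, which were 75.4% of the knockout's calls and 78.0% of the wild type's. Across genes, which are not independent replicates, the changes correlated at 0.89. A test of the difference between genotypes called 229 genes whose knockout change was the higher (2.78%) and 221 for which it was the lower (2.68%). Of the 229, 172 rose in the knockout, 31 fell and 26 did not pass. Of the 221, 86 rose, 90 fell and 45 did not pass. Opposite called changes were found for 41 genes, 20 of them higher in the knockout and lower in wild type, and all 41 passed the test of the difference.

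**Figure D5:**
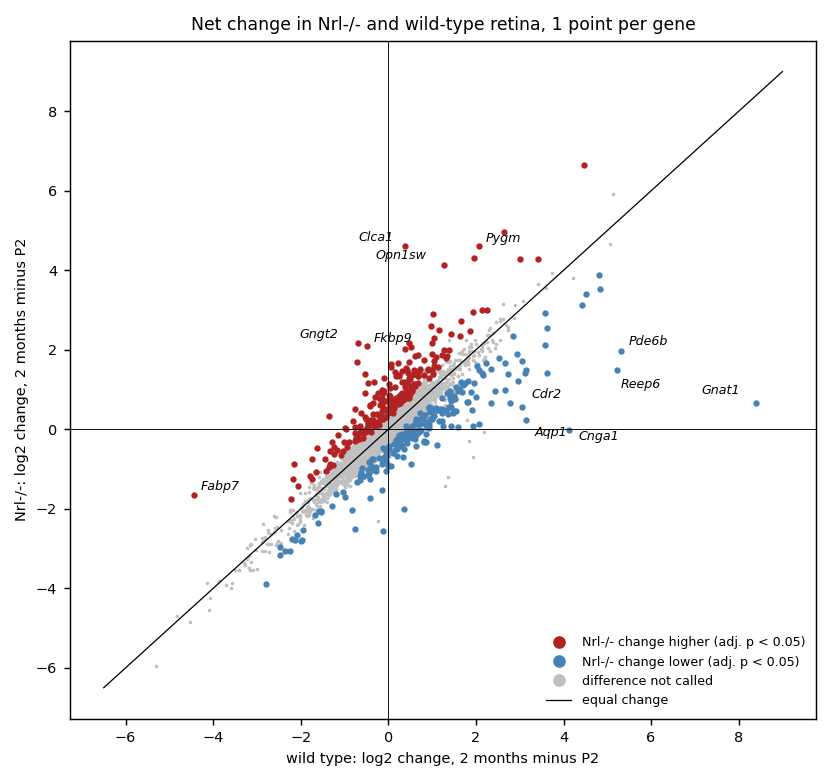
Log2 change from P2 to 2 months in wild-type (x) and Nrl-/- retina (y) for 8251 genes, coloured where the test of the difference passed at an adjusted p under 0.05 (229 red, 221 blue). Gnat1 lies far to the right of the line of equal change at 8.38 against 0.67, and Clca1 above it at 0.38 against 4.60.

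Cone genes carried larger changes in the knockout, with 5 of 7 passing the test of the difference as higher and 1, Gnb5, as lower. Opn1sw rose by 1.28 in wild type, from 259, 423, 238 and 361 to 883, 725, 672 and 767. Every adult wild-type value was far below the lowest adult knockout value of 6908, and the difference in change was 2.86 ± 0.17 (adjusted p = 1.40e-12). Gngt2 fell in wild type, from 160.3, 174, 166 and 189 to 104, 106, 98 and 115. The genotypes took opposite directions, with a difference of 2.86 ± 0.12 (adjusted p = 1.59e-16). Opn1mw was the 1 cone gene that did not pass, with a difference of 0.52 ± 0.24 (adjusted p = 0.29).

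Rod genes carried smaller changes, with 8 of 9 passing as lower. The largest difference of all genes was that of Gnat1, -7.71 ± 0.50 (adjusted p = 4.67e-12). Cnga1 followed at -4.14 ± 0.14, Reep6 at -3.74 ± 0.13 and Pde6b at -3.34 ± 0.18. Reep6 read 74.4, 92.7, 90.2 and 73.5 at P2 and 3036, 3301, 2873 and 3121 at 2 months in wild type, and 209, 173, 184 and 209.7 in the adult knockout. The knockout rise passed its own test, but every adult knockout value was far below every adult wild-type one. Aqp1, a water channel, did not pass in the knockout (0.24 ± 0.12) and rose by 3.13 in wild type, where its adult values were 356, 401, 367 and 466. Cdr2 went from 37.3, 37.7, 39.4 and 43 to 282, 313, 346 and 378 in wild type (difference -2.50 ± 0.16). Of the shared photoreceptor genes, Sag and Pdc rose more in the knockout, by 2.18 ± 0.25 and 1.28 ± 0.15, and Rcvrn, Prom1 and Abca4 less, by -1.29, -0.73 and -0.65. Sag started lower in the knockout, with a P2 mean of 45.5 against 244.7 in wild type. At 2 months its mean was 4453 in the knockout and 5322 in wild type, so adult Sag was not higher in the knockout.

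Outside the photoreceptor lists, the brightest probe set annotated to Clca1, of a family that modulates calcium-activated chloride currents, read 18, 17.7, 23.6 and 14.9 at P2 and 411, 474, 389 and 514 at 2 months in the knockout. In wild type its values were 25.3, 15.7, 16.8 and 30.2 and 26.7, 24, 32 and 28.6. On this probe set only the adult knockout arrays were raised (difference 4.22 ± 0.23, adjusted p = 8.96e-14). A second, dim Clca1 probe set, with means of 10.0 at P2 and 13.9 at 2 months, rose by 0.48 in the knockout, and its difference of 0.37 did not pass (adjusted p = 0.331). The Clca genes are related copies whose symbols have been reassigned, so which of them the brighter probe set reads is uncertain. The probe set annotated to Gzmm, a serine protease first known from natural killer cells, rose by 4.97 ± 0.14 in the knockout and 2.65 in wild type. Its symbol rests on the platform annotation alone. Fabp7, a lipid-binding protein of progenitors and glia, fell less in the knockout, from 1296, 1059.9, 907 and 1382 to 355, 332, 330.3 and 454, than in wild type, from 929, 1088, 1017 and 1042 to 58.6, 44.1, 39 and 47.5. All adult knockout values were above all adult wild-type values (difference 2.79 ± 0.20). Fkbp9, a chaperone of the endoplasmic reticulum, rose by 2.11 ± 0.15 to 176, 103, 186 and 199, where replicate 2 was lowest, and changed by -0.50 in wild type. Vtn, vitronectin, rose in both genotypes (4.66 ± 0.10 and 5.06), with a difference of -0.40 ± 0.13 whose adjusted p was 0.101.

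Glial and immune lists held further differences, all with the knockout change the higher. They were 7 of 24 Müller glia genes (Clu, Apoe, Crym, Mt1, Mt2, Ptgds and Cav1), 8 of 31 genes of glial reaction and 8 of 32 of complement and antigen presentation, against 2.78% of all genes. Apoe stood at 1447, 1481, 1563 and 1792 in adult wild type, under every adult knockout array (difference 0.98 ± 0.13). Osmr differed by 1.25 ± 0.18, Cebpd by 1.05 ± 0.23 and H2-K1 by 0.90 ± 0.10. On other H2-K1 probe sets the difference was 0.397 (adjusted p = 0.0128 in limma) and 0.008, which did not pass. Only 1 of 25 microglial genes, Ctss, passed (0.82 ± 0.14). Glycolysis divided, with Pygm (2.55 ± 0.22) and Eno3 rising more in the knockout and 8 others less, among them Aldoa, Pkm and Ldha. Hk2 and Aldoc rose in both genotypes, with differences of -0.05 ± 0.16 and 0.19 ± 0.17 that did not pass. Elongase and sterol genes Elovl2, Elovl5, Elovl6 and Abca1 were the 4 of their list that differed, all higher in the knockout.

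Among genes that fell, most differences were small. In the cell cycle list 7 of 56 fell more in the knockout and 1, Kif22, less. Hmgb2 differed most among those named, by -1.09 ± 0.19. Mest fell by 2.51 ± 0.13 in the knockout but by 0.77 in wild type, from 61.8, 73, 66.5 and 77.2 to 33.9, 37.8, 43.6 and 49. All adult knockout values lay under all adult wild-type values (difference -1.73 ± 0.18, adjusted p = 6.38e-08). Hspa1a and Hspa1b rose less in the knockout, by -1.34 ± 0.13 and -1.65 ± 0.13, as did Fos, by -1.10 ± 0.26, and Drd4, by -1.06 ± 0.27.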

How the data were processed

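Total RNA of whole retina was hybridised as biotin-labelled target to 24 Affymetrix arrays, 4 for each of 6 groups of genotype and age. The authors deposited linear intensity values, 1 per probe set and array, which the submitters' processing notes credit to RMA. Its version and the set of arrays normalised jointly are not given in the sources used here. Of 12488 probe sets, 66 controls were left out. Of the 12422 tested, 10833 had 1 symbol in the platform annotation, 396 several and 1193 none.

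Log2 intensities were fitted in R 4.3.3 with limma 3.58.1 (lmFit, eBayes) as 6 group means over all 24 arrays. Contrasts were the knockout net change, its 2 steps through P10, the wild-type net change and the difference of the net changes. P-values were two-sided and adjusted by Benjamini-Hochberg over the 12422 probe sets. A call needed an adjusted p under 0.05, and a peak or dip needed both steps called in opposite directions. The precision is limited by the number of arrays.

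Named genes were Nrl, the 12 largest called rises and falls without overlap, up to 4 called members per list, the 6 largest peaks and dips and the 6 largest differences in each direction. Other members are named to account for a list, and were picked after their values were seen. The members and the 33 lists, 811 of whose 1079 genes were measured, were chosen with earlier results of these data known, and no list was tested as a set.

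Replicate numbers count as pairing knockout P2 and 2 month arrays, because the deviations of same-numbered arrays from their group means correlated at 0.291, 0.354, 0.435 and 0.191. P2 and P10 arrays correlated at 0.178 to 0.372 and count as paired too. The labels do not say what a number marks. P10 and 2 month arrays correlated at 0.354, 0.376 and 0.192 in replicates 1 to 3 and at -0.014 in replicate 4. They were not counted as paired, though replicates 1 to 3 were in the range of the P2 and P10 values or just above it.

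On data simulated for the knockout net change over 12422 probe sets, 82 of 100 changes of 0.5 and 100 of 100 changes of 1 were recovered, with 12 false calls. The simulation held no effects shared within an array. Promoters came from RefSeq on GRCm38.p6. Alternatives were quantile normalization, median centring, leaving out dim probe sets, trended robust moderation, array weights, fewer arrays, a replicate block, a pseudocount of 16, stricter thresholds and leaving out each array. Figures used Python 3.11.15 and matplotlib 3.10.9.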

Additional observations from a re-analysis of the deposited data

Results flagged for a closer look

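In 22 of 315 groups of 4 arrays looked at among the named genes, 1 array stood apart from the other 3 by more than Dixon's limit, which chance passes in about 1 in 20 groups. At P2 the low arrays were those of Sag (26.7), Reep6 (58.7) and Sparc (52.9) in replicate 2, Pygm (17.1) and Emb (64.8) in replicate 1, Hsp90aa1 (1355), Trak2 (55.9) and Fkbp9 (33.7) in replicate 3, and Aqp4 (14.4) in replicate 4. High P2 arrays were those of Sox4 (1692) and Crygs (142) in replicate 3 and Idi1 (491.5) in replicate 1. At 2 months the high arrays were those of Vtn (1359.75), Marcksl1 (110.4), Nefh (177), Apoe (2932) and Cdkn1c (75.9) in replicate 4, Kcnma1 (386) and Gnat1 (67.8) in replicate 1 and Car8 (229) in replicate 2. Low 2 month arrays were those of Syt1 (382) and Ina (338) in replicate 3. P2 replicate 3 and 2 month replicate 4 each held 5 of the 22.

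The net change of 43 named genes differed between knockout and wild type by limma's test of the difference. Net changes higher in the knockout than in wild type, as log2 differences, were those of the photoreceptor genes Sag (2.18), Gnat2 (2.36), Pdc (1.28), Opn1sw (2.86), Gnb3 (1.87) and Gngt2 (2.86). They were joined by Gzmm (2.33), Pygm (2.55), Clca1 (4.22) and Fkbp9 (2.60), and by Fabp7 (2.79), which fell less in the knockout. Glial, immune and lipid genes of this direction were Clu (0.88), Mt1 (1.02), Apoe (0.98), Cebpd (1.05), Osmr (1.25), H2-K1 (0.90), H2-D1 (0.76), Ifit3 (0.45), Ctss (0.82), Abca1 (1.17) and Elovl2 (1.28), and clock genes were Dbp (0.72) and Nr1d1 (0.57).

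Lower changes in the knockout were those of Nrl (-1.16) and the rod genes Gnat1 (-7.71), Cnga1 (-4.14), Reep6 (-3.74), Pde6b (-3.34), Pde6a (-1.47) and Pde6g (-0.93). Aqp1 (-2.90), Cdr2 (-2.50), Drd4 (-1.06), Hspa1a (-1.34), Hspa1b (-1.65) and Fos (-1.10) rose less or did not pass in the knockout. Hmgb2 (-1.09), Mest (-1.73), H2ax (-0.71), Col5a2 (-0.98) and Pttg1 (-0.77) stood lower, as did Crygs (-1.68), whose lens RNA varied between arrays.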

How the results depend on the processing

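The counts of called probe sets kept within 1.5 times under most alternatives. For the net change they ran from 5076 to 6252 with 1 knockout array left out, and were 5657 after quantile normalization, 5478 after median centring and 4031 of 6211 without dim probe sets. The fit with the replicate block called 6468 probe sets for the net change (3702 higher, 2766 lower), and the pairing moved no count given for it by more than 1.5 times. The block gave 834 differences between genotypes against 584, 313 peaks against 245 and 93 dips against 71. Peaks and dips rest on a first step for which the numbers count as pairing the arrays and a second for which they were not counted so. Requiring at least 2-fold left 1010 probe sets for the net change, 135 for the difference, 6 peaks and 0 dips. At an adjusted p under 0.01 there were 142 peaks and 42 dips, and array weights gave 113 dips. Leaving out 1 array gave 507 to 697 differences, 194 to 247 peaks and 58 to 80 dips. Quantile normalization without P2 replicate 1, chosen after seeing the data, called 5191 probe sets, 2588 of them higher.

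No named change was reversed where it was called. Over 2714 alternatives for the net change of 152 named genes, the calls of Alas2, Cnp, Crybb2, Crygs, Dkk3, Mog, Npy and Xist were lost in 55. Gnat1 gained a call with array weights (1.08) and Aqp1 without P2 replicate 2 (0.30). Of 1066 alternatives for the 43 called differences between genotypes, most of them added after seeing the data, 15 lost the call. They were 10 of 25 for Nr1d1, each without 1 array (0.49 to 0.57), 2 each for Ifit3 and Crygs and 1 for H2ax, without wild-type P2 replicate 1 (-0.61). Ifit3 lost its call without wild-type 2 month replicate 2 (0.42), and it and Crygs lost theirs in a fit to the P2 and 2 month arrays alone (0.45 and -1.68). Dim probe sets limit the size of a fold: 23 named genes had a group mean under the lower quartile.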

Other observations

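For 39 named genes the array held other probe sets, 42 in all, and 14 of these disagreed with the brightest on the net call. Those of Hk2 (0.06, adjusted p = 0.606), Apoe (0.12, adjusted p = 0.425), Egr1 (0.16, adjusted p = 0.117) and Nes (0.11, adjusted p = 0.406) had P2 means of 7.72, 9.96, 14.3 and 21.6, all under the lower quartile of intensities. The second probe sets of Ckmt1 (0.26, adjusted p = 0.130) and Hsp90aa1 (0.20, adjusted p = 0.132) had P2 means of 42.9 and 40.0 and did not pass in limma. That of Krt18, with a P2 mean of 6.42, did not pass either (-0.08, adjusted p = 0.455). Others agreed in direction at another size. Clu rose by 2.87 on a second probe set against 4.29, Aqp4 by 2.51 against 3.65 and Ccnd1 changed by -2.40 against -4.69. The second probe set of Atp1b2 rose by only 0.28 against 2.25. That of Pde6b, with a P2 mean of 48.4, rose by 0.695 against 1.98. Stx3 rose on all 3 of its probe sets, by 2.62, 1.66 and 1.32.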
